A study of Mus musculus with 6 samples.

Results

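Chromatin accessibility was examined at the genes of 4 transcription factors of microfold (M) cells, namely Spib, Sox8, Atoh8 and Esrrg. The windows were taken by position. A window belonged to a factor when the nearest end of a protein-coding gene was an end of that factor's gene and lay within 50 kb of the window's centre, and every window within 30 kb of Spib was added whatever its nearest gene. This gave 15 of the 55056 windows of the data set: 1 nearest Spib, 2 nearest Sox8, 6 nearest Atoh8, 2 nearest Esrrg, and 4 around Spib that are nearest Emc10, Mybpc2, Pold1 or Nr1h2.

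The measurement was bulk ATAC-seq, which reads accessible chromatin by where a transposase, Tn5, can cut and tag the DNA. Each library came from 50000 cells of mouse small intestinal organoids, which are cultured epithelial structures with crypt-like and villus-like regions. The organoids were 1 line, line26, from a female Lgr5GFPDTR/+ mouse, so both groups carried 1 Lgr5 allele with a green fluorescent protein and diphtheria toxin receptor insertion. The RANKL group (n = 3) received 3 µM CHIR99021 and 1.5 mM valproic acid for 3 days, ENR medium (EGF, Noggin and R-spondin 1) for 1 day and then 100 ng/mL RANKL for 6 days. The control group (n = 3) was kept in ENR medium for 6 days. The labels name the control libraries CVENRD6, in which the letters CV may stand for CHIR99021 and valproic acid. They do not state whether control organoids received these 2 compounds. From the labels as given, RANKL and that pretreatment therefore cannot be told apart. The 3 libraries of a group came from separate differentiation experiments with the same line, and p-values measure the spread between those experiments, not between mice. M cells were enriched by the treatment and were not sorted. In such bulk libraries, more cells of a type and a more open site in each cell cannot be told apart.

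M cells are epithelial cells over intestinal lymphoid follicles that carry luminal antigen to the immune cells beneath. They form when RANKL, a cytokine of the TNF family, binds its receptor RANK on epithelial cells and activates NF-κB. Spi-B, the product of Spib, is an Ets-family factor required for M cell differentiation. Sox8 is an SRY-box factor needed for M cell maturation and for expression of the bacterial receptor Gp2. Esrrg encodes the oestrogen-related receptor gamma, a nuclear receptor reported to act upstream of Sox8 in M cells. Atoh8 is a basic helix-loop-helix factor reported to restrain M cell numbers.

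The 15 windows were compared with the RefSeq promoters (GRCm38.p6) of the 4 factors alone, and promoters of other genes were not compared. A promoter here is the 250 bases before and 50 bases after a transcription start. Windows of Spib and Atoh8 reached such a promoter. The 200-bp window of Spib lay wholly inside the Spib promoter, and the 2-kb window around the Atoh8 window nearest its start held the whole Atoh8 promoter. No member window, of 200 bp or 2 kb, overlapped the Sox8 promoter or any of the 4 Esrrg promoters. The part of the Spib promoter that lies outside the annotated gene is shown because 149 of its 234 bases fall in the 200-bp window described below. It is given on the minus strand, 5′ to 3′, and capitals mark matches to the NF-kB consensus and to the E-box CAGNTG.
Spib, chr7:44532088-44532321: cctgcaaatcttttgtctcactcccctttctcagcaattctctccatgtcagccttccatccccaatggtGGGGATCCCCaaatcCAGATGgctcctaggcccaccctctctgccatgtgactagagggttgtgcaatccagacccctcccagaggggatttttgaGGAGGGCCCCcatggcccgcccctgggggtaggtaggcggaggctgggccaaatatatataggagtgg

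Both strands were searched, and each motif's frequency was counted over all 32851 RefSeq promoters of the same 300-bp length. The NF-kB consensus matched 2 times in the Spib promoter, 180 and 84 bp before the start, and 8.46% of all promoters hold at least 1 match. The match 84 bp before the start lies in the 200-bp Spib window, and the match 180 bp before it lies outside that window. The E-box of the Spib promoter lies 165 bp before the start and that of Atoh8 59 bp before it, and 51.4% of promoters hold 1. The SOX site ACAAAG lies 81 bp before the Atoh8 start and is found in 18.7% of promoters. The first Esrrg promoter holds 1 AP-1 site, TGANTCA, which 7.81% of promoters hold. The Ets core GGAA, found in 96.0% of promoters, occurs in the Spib promoter, the Atoh8 promoter and all 4 Esrrg promoters. The longer Ets site GAGGAAGT (3.20% of promoters), the site of the oestrogen-related receptors AAGGTCA (4.72%) and the ONECUT site ATCAAT (7.54%) have no match in the Spib, Sox8, Atoh8 and Esrrg promoters searched. These matches describe letters and say nothing of whether a factor is bound.

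Library depth was shallow. Totals over the 200-bp windows ran from 322173 to 976881 counts, the median window held 3 to 11 counts, and 3 counts were worth 3.95 to 12.2 CPM, the count scaled to library size. The wider 2-kb windows around the same centres held 883695 to 2449376 counts per library, so 3 counts were worth 1.29 to 3.43 CPM there. Differences were tested with edgeR's quasi-likelihood test on all windows that passed its low-count filter, and a call is a Benjamini-Hochberg adjusted p of at most 0.05 over those windows. Of 21618 windows tested at 200 bp, 10.0% were called higher with RANKL and 10.0% lower. Of 49935 windows tested at 2 kb, 8.37% were called higher and 10.2% lower.

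Accessibility at the Spib promoter was higher in every RANKL library than in any control library. The window chr7:44532037-44532236 lies 49 bp outside the gene (Gene ID 272382, chr7:44525995-44532087, minus strand), and its centre is 65 bp upstream of the RefSeq start. It held 1, 3 and 0 counts in control replicates 1 to 3 and 6, 6 and 22 in RANKL replicates 1 to 3. That is 1.43, 3.95 and 0 CPM in the controls and 24.4, 17.3 and 36.1 CPM with RANKL. The controls were at or below the level that 3 counts give, and the lowest RANKL library was above the highest control.

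The mean level at the Spib promoter was 1.79 ± 2.00 CPM in controls and 25.9 ± 9.46 CPM with RANKL (SD, n = 3 each). From the pooled counts this is a ratio of 12.8, with an exact 95% interval of 4.57 to 49.7 that covers counting error only. In controls, 6.89% of all windows, and 0.857% of those lying 1 kb or less from the end of a gene, had a lower mean level than the Spib promoter. With RANKL these shares were 70.1% and 27.7%. The Spib promoter was thus among the least accessible gene-end windows of control organoids and in the lower part of the same class with RANKL. The window was below the 200-bp count filter. With no filter the log2 fold change was 3.51 ± 0.77 (SE, adjusted p = 0.0002811).

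The 2-kb window around the Spib promoter gave the larger counts that the test needs. It held 13, 12 and 2 counts in controls and 30, 29 and 65 with RANKL, or 6.04, 5.15 and 1.89 CPM against 34.3, 21.0 and 28.0 CPM. The groups did not overlap, and the log2 fold change was 2.50 ± 0.37 (adjusted p = 3.684e-07). This window passed the 2-kb filter through the RANKL libraries, which is why the fit without a filter is also given: 2.47, adjusted p = 7.844e-08. Over 13 other settings the log2 fold change stayed between 2.25 and 3.05, with adjusted p of at most 5.424e-05.

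The other windows around Spib had smaller log2 fold changes than its promoter, a difference that was not tested. The window nearest Mybpc2, a gene of myosin-binding protein C of fast skeletal muscle, lies between that gene and the 3′ end of Spib, 6726 bp downstream of the Spib start (chr7:44525246-44525445). Its 200-bp level was 32.9, 42.1 and 39.6 CPM in controls and 65.1, 124.1 and 77.0 CPM with RANKL. All RANKL libraries were above all controls, and the window was called higher (log2 fold change 1.21 ± 0.25, adjusted p = 4.174e-05). Its 2-kb counts, which reach into the 3′ end of Spib, gave 0.46 ± 0.19 (adjusted p = 0.08601) with overlapping groups. Normalisation by loess offsets, which removes trends with abundance, raised that value to 0.71 (adjusted p = 0.005296), and leaving out control replicate 3 raised it to 0.64 (adjusted p = 0.02229).

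The windows at Emc10, a subunit gene of the endoplasmic reticulum membrane complex, at Pold1, which encodes the catalytic subunit of DNA polymerase delta, and at Nr1h2, which encodes the liver X receptor beta, lay 13 to 82 bp from an end of those genes. Their control levels were far above that of Spib, with means of 76.3 ± 13.2 CPM at Emc10, 72.3 ± 9.17 CPM at Pold1 and 24.8 ± 6.96 CPM at Nr1h2 (SD, n = 3). None was called at 200 bp, where the log2 fold changes were 0.32 ± 0.20, 0.16 ± 0.22 and 0.41 ± 0.39. At 2 kb they were 0.12 ± 0.15, 0.11 ± 0.18 and -0.02 ± 0.22, again without a call. Emc10 passed the threshold at 2 kb with loess offsets alone (0.42, adjusted p = 0.03662). Fam71e1, the other protein-coding gene with an end within 30 kb of Spib, was the nearest gene of no window. The centre of the Emc10 window lies inside Fam71e1.

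**Figure D1:**
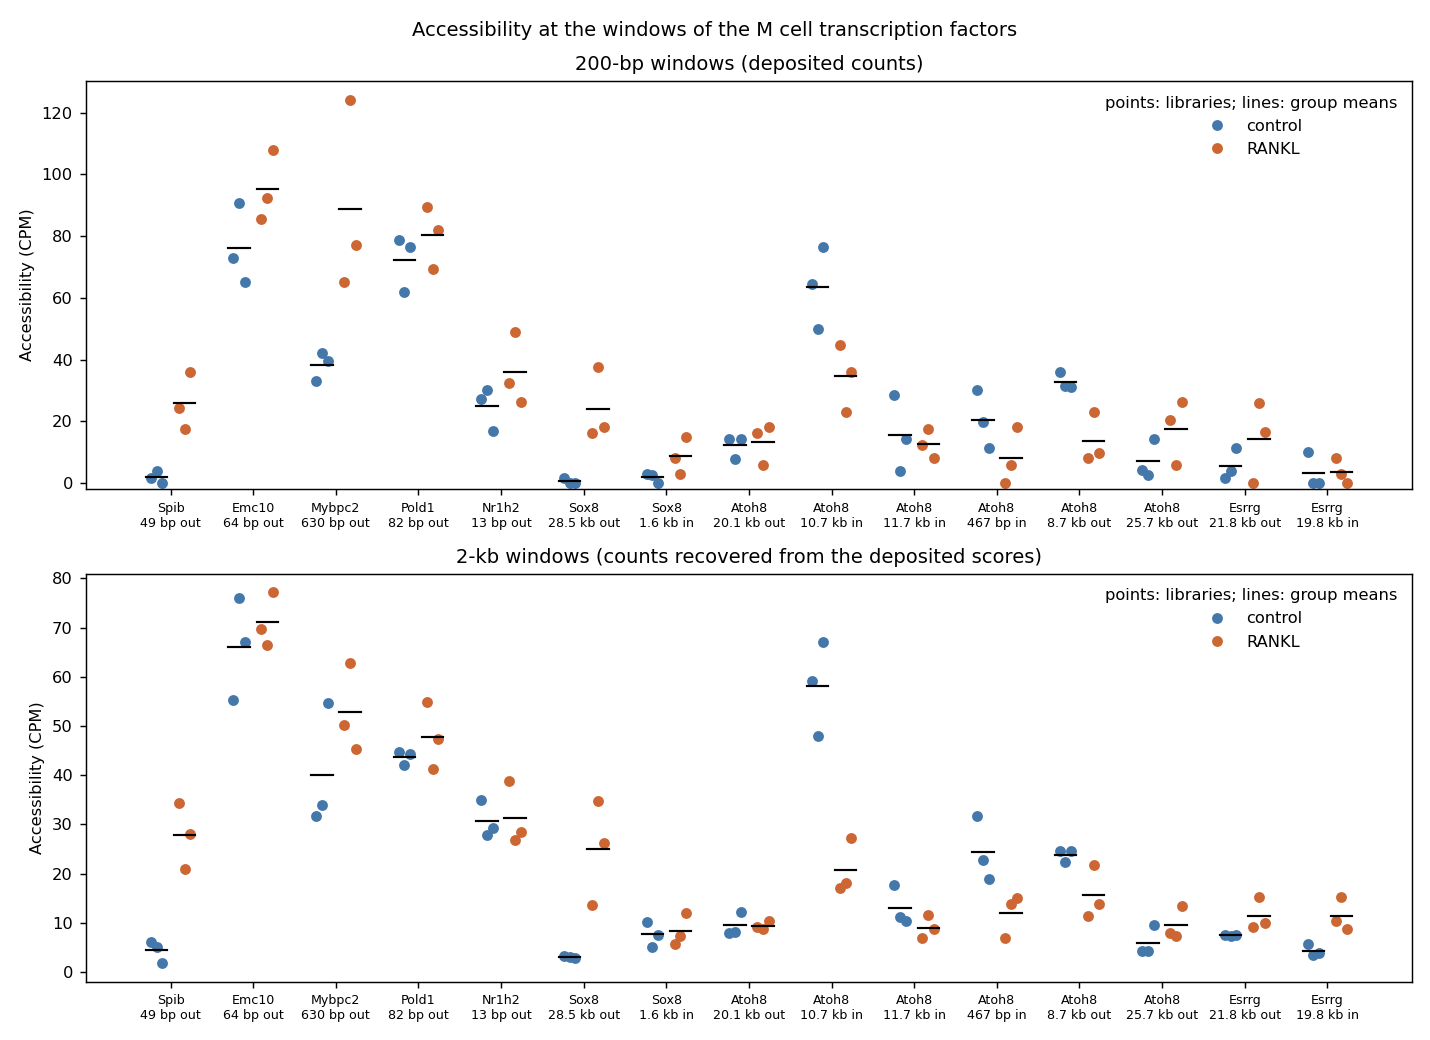
Accessibility in CPM (y axis, linear) of each library at the 15 windows (x axis, labelled by nearest gene and by distance to the gene's nearest end, inside or outside the gene), for 200-bp windows above and 2-kb windows below. Points are single libraries, 3 control and 3 RANKL, and lines are group means. At the Spib window the RANKL libraries lie at 17.3 to 36.1 CPM in 200 bp and the controls at 0 to 3.95 CPM.

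The largest relative difference among the 15 windows lay beyond the 3′ end of Sox8. The window chr17:25537265-25537464 is 28529 bp outside Sox8 (Gene ID 20681, chr17:25565893-25570686, minus strand) and 33322 bp downstream of its start. It held 1, 0 and 0 counts in controls and 4, 13 and 11 with RANKL, or 1.43, 0 and 0 CPM against 16.3, 37.5 and 18.0 CPM. The signal was at the limit of detection in controls and present in every RANKL library. The pooled counts gave a ratio of 42.2 with an interval of 6.98 to 1725, so its size is poorly fixed from above. In controls 2.27% of all windows had a lower mean, and with RANKL 67.7%.

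In 2 kb the same Sox8 window held 7, 7 and 3 counts in controls and 12, 48 and 61 with RANKL. These are 3.25, 3.00 and 2.83 CPM against 13.7, 34.7 and 26.3 CPM. The SD was 0.213 CPM among the controls and 10.6 CPM among the RANKL libraries, and the groups did not overlap. The log2 fold change was 3.04 ± 0.41 (adjusted p = 5.437e-08), and it lay between 2.75 and 3.49 over 13 other settings, with a call in each. As at Spib, the window passed the filter through the RANKL libraries. The fit without a filter gave 3.01 at 2 kb (adjusted p = 6.477e-09) and 4.94 ± 1.06 at 200 bp (adjusted p = 0.0001627).

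The second Sox8 window, chr17:25567423-25567622, lies inside the gene, 3164 bp downstream of its start. Its 200-bp counts were 2, 2 and 0 in controls and 2, 1 and 9 with RANKL, too few for the filter, although all 3 RANKL libraries were slightly above all controls in CPM. At 2 kb the groups overlapped and the log2 fold change was 0.21 ± 0.48 (adjusted p = 0.8263). Summed over both windows, Sox8 had 3, 2 and 0 counts in controls and 6, 14 and 20 with RANKL. The sum rose by 3.41 ± 0.71 on the log2 scale (adjusted p = 7.087e-05 over 12467 genes, of which 6.98% were called higher and 8.41% lower). The distal window held 4, 13 and 11 of those RANKL counts. The sum, too, passed its filter through the RANKL libraries, and gave 3.43 ± 0.76 without one (adjusted p = 0.0002678). Summed over the 2-kb windows, Sox8 had a smaller value of 1.74 ± 0.30 (adjusted p = 3.449e-06), or 1.62 with loess offsets.

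Atoh8 lost accessibility inside the gene, and upstream of it by a weak call at 200 bp alone. The gene (Gene ID 71093, chr6:72206174-72235780, minus strand, 29.6 kb) had 6 windows, where the median gene with a window had 2 and 7.17% of genes had 6 or more. Its summed counts were 124, 88 and 57 in controls and 25, 28 and 71 with RANKL. In CPM the sums were 174.9, 115.1 and 162.1 in controls and 97.6, 76.4 and 108.7 with RANKL, so that the lowest control stood just above the highest RANKL library. The sum fell by 0.62 ± 0.19 on the log2 scale (edgeR, adjusted p = 0.009951), and at 2 kb by 0.71 ± 0.13 (adjusted p = 1.385e-05). Without control replicate 1 the 200-bp value was -0.47 (adjusted p = 0.1653), and without RANKL replicate 2 it was -0.50 (adjusted p = 0.09872).

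The strongest Atoh8 window lies inside the gene, 18729 bp downstream of the start (chr6:72216749-72216948). It held 45, 38 and 27 counts in controls and 11, 8 and 22 with RANKL, or 64.4, 50.0 and 76.4 CPM against 44.8, 23.1 and 36.1 CPM. Every RANKL library was below every control. At 200 bp the window fell by 0.85 ± 0.30 on the log2 scale (edgeR, adjusted p = 0.02817), a call lost in 7 of 14 other settings with adjusted p between 0.05749 and 0.5265. Leaving out control replicate 1 gave 0.08067, control replicate 3 gave 0.09845, RANKL replicate 2 gave 0.1564 and RANKL replicate 3 gave 0.08016.

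At 2 kb that Atoh8 window was called in every setting run. Its counts were 127, 112 and 71 in controls and 15, 25 and 63 with RANKL, or 59.1, 48.0 and 67.0 CPM against 17.1, 18.1 and 27.2 CPM. The mean went from 58.0 ± 9.51 to 20.8 ± 5.55 CPM (SD, n = 3 each), and the window fell by 1.37 ± 0.21 on the log2 scale (edgeR, adjusted p = 7.838e-07). The range over 13 other settings was -1.65 to -1.13.

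The window at the Atoh8 start (chr6:72235214-72235413) has its centre 264 bp downstream of the RefSeq start, and its 2-kb extension holds the whole RefSeq promoter. Its 2-kb counts were 68, 53 and 20 in controls and 6, 19 and 35 with RANKL, or 31.6, 22.7 and 18.9 CPM against 6.85, 13.7 and 15.1 CPM. The groups were apart, although by less than the spread within either, and the window fell by 0.97 ± 0.30 on the log2 scale (edgeR, adjusted p = 0.01614). The call was lost without control replicate 1 (-0.73, adjusted p = 0.182) and without RANKL replicate 1 (-0.79, adjusted p = 0.06071). At 200 bp the counts of 21, 15 and 4 against 0, 2 and 11 were below the filter, and their CPM overlapped.

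Upstream of Atoh8, 8887 bp before the start, the window chr6:72244365-72244564 held 25, 24 and 11 counts in controls and 2, 8 and 6 with RANKL. Its levels were 35.8, 31.6 and 31.1 CPM against 8.14, 23.1 and 9.83 CPM, with no overlap. It fell by 1.28 ± 0.47 on the log2 scale (edgeR, adjusted p = 0.03415). This call is weak: it was lost in 9 of 13 other settings, among them the fit without a filter (-1.26, adjusted p = 0.07386) and the omission of any 1 library other than RANKL replicate 2 (adjusted p 0.05463 to 0.2291). At 2 kb the difference was -0.59 ± 0.29 (adjusted p = 0.1578), with non-overlapping groups.

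The other 3 Atoh8 windows were not called. At 2 kb the window 11452 bp downstream of the start gave -0.54 ± 0.39 (adjusted p = 0.3889), the one 49477 bp downstream of it 0.06 ± 0.44 (adjusted p = 0.9537) and the one 25894 bp upstream 0.83 ± 0.52 (adjusted p = 0.3045). All 3 had means under 15 CPM at 2 kb in both groups. The calls at Atoh8, taken over both widths, therefore lay in 3 of its 6 windows, between 8887 bp upstream and 18729 bp downstream of the start. Each width called 2 of them. The strongest window was called at both widths, the upstream window only at 200 bp and the window at the start only at 2 kb. The outermost window on each side was not called.

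Esrrg had the longest gene and the least decided values. It spans 606.4 kb (Gene ID 26381, chr1:187608510-188214885, plus strand), so most of its body lies further than 50 kb from either end. The window 21829 bp upstream of the gene (chr1:187586582-187586781) held 1, 3 and 4 counts in controls and 0, 9 and 10 with RANKL, and at 2 kb it held 16, 17 and 8 against 8, 21 and 23. The 2-kb levels were 7.44, 7.29 and 7.55 CPM against 9.13, 15.2 and 9.92 CPM. They did not overlap, but the log2 fold change of 0.62 ± 0.44 was not called (adjusted p = 0.3654).

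The second Esrrg window, 19829 bp inside the gene (chr1:187628240-187628439), held 7, 0 and 0 counts in controls and 2, 1 and 0 with RANKL in 200 bp. Its 2-kb counts of 12, 8 and 4 against 9, 21 and 20 gave 5.58, 3.43 and 3.77 CPM in controls and 10.3, 15.2 and 8.62 CPM with RANKL. All RANKL libraries were above all controls, and the log2 fold change was 1.37 ± 0.54 (adjusted p = 0.0638). Summed over both windows, the 2-kb counts gave 1.00 ± 0.33 (adjusted p = 0.01971), a value that no longer passed with loess offsets (0.82 ± 0.33, adjusted p = 0.0672). The 200-bp sum of Esrrg was below the filter and gave 1.00 ± 0.77 without it (adjusted p = 0.4448).

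The direction of the Esrrg sum depended on which windows were counted. Just outside the 50-kb limit, the window chr1:187553416-187553615, 54995 bp upstream of the gene, held 3, 0 and 0 counts in controls and 9, 16 and 30 with RANKL. Its mean was 1.43 ± 2.48 CPM in controls and 44.0 ± 6.55 CPM with RANKL at 200 bp, and 3.54 ± 1.71 against 17.8 ± 3.04 CPM at 2 kb (SD, n = 3). It is given without a test because it was singled out after its values were seen. Windows up to 200 kb from a gene end, which include that window and part of the inner gene, gave a sum of 0.70 ± 0.22 (adjusted p = 0.0142). Assigning windows to the nearest gene body within 50 kb instead brings in all of the inner gene and leaves out that upstream window. That sum was -0.55 ± 0.16 (adjusted p = 0.009899).

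Inside the Esrrg body, 11 further windows lay more than 50 kb from an end of the gene. At 200 bp 3 of them passed the filter, of which 0 were called higher and 1 lower. At 2 kb 9 passed, of which 1 was called higher and 1 lower. Over all windows tested, 10.0% were called higher and 10.0% lower at 200 bp, and 8.37% and 10.2% at 2 kb. The window called lower at both widths lies 288639 bp from the nearer gene end (chr1:187897050-187897249) and held 25, 48 and 24 counts in controls and 6, 6 and 6 with RANKL. Its level was 35.8, 63.1 and 67.9 CPM against 24.4, 17.3 and 9.83 CPM, all RANKL libraries below all controls. It fell by 1.81 ± 0.39 on the log2 scale at 200 bp (edgeR, adjusted p = 6.948e-05) and by 0.96 ± 0.29 at 2 kb (adjusted p = 0.01215). With loess offsets the 2-kb value was -0.80 (adjusted p = 0.05256).

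A second deep Esrrg window, 31 bp from the innermost of the 4 RefSeq starts, at chr1:187997697-187997896, held 19, 24 and 9 counts in controls and 2, 0 and 15 with RANKL. In CPM these were 27.2, 31.6 and 25.5 against 8.14, 0 and 24.6, so the groups were apart by less than 1 CPM. The log2 fold change was -1.07 ± 0.49 (adjusted p = 0.107). The only deep window called higher, at 2 kb, lies 97022 bp inside the gene and gave 0.88 ± 0.32 (adjusted p = 0.04736). That call was lost without a filter (0.85, adjusted p = 0.0532), and the groups overlapped at both widths. Deep in the Esrrg body 1 window was thus called higher and 1 lower, too few to set against the shares over all windows. Upstream of the gene no window within 50 kb was called.

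**Figure D2:**
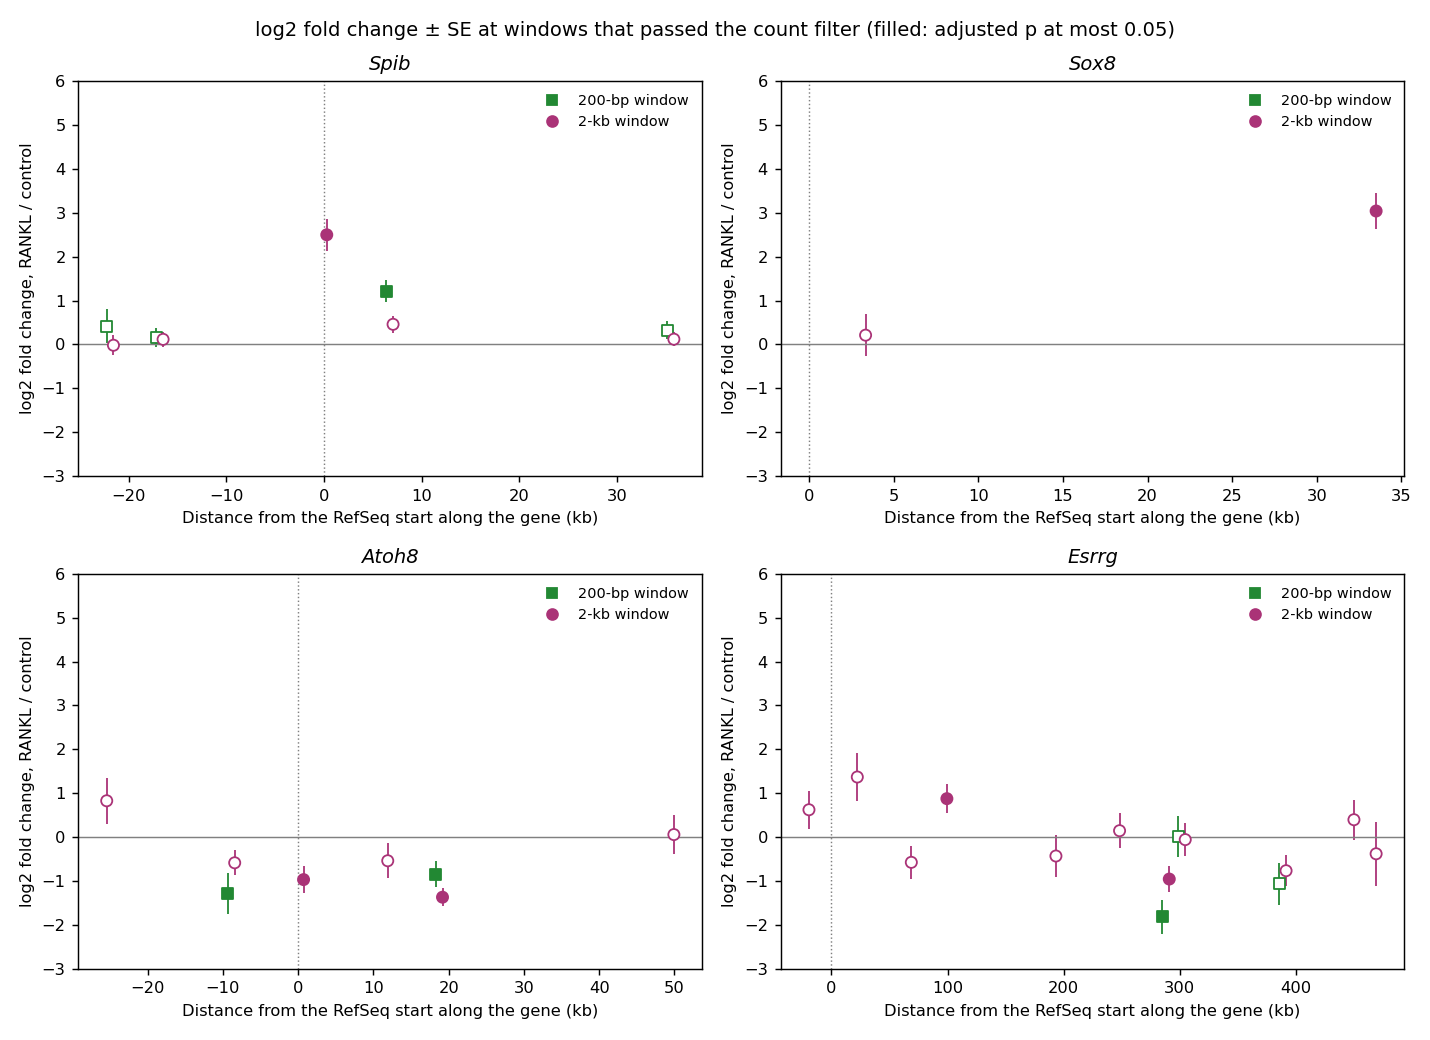
log2 fold change of RANKL over control (y axis, ± SE, n = 3 libraries each) against distance from the RefSeq start along the gene in kb (x axis, first start for Esrrg, negative upstream), for each window that passed the count filter, 200-bp and 2-kb windows nudged apart. Filled symbols have an adjusted p of at most 0.05. The Spib promoter (2.50) and the window downstream of Sox8 (3.04) stand above 0. Filled symbols at 3 Atoh8 windows stand below 0. The Atoh8 window 11452 bp downstream of the start (-0.54, open symbol) also lies below 0.

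Counted over all 15 windows, with no filter, all RANKL libraries lay above all controls in 4 windows at 200 bp (Spib, both Sox8 windows and that at Mybpc2) and below them in 2 (Atoh8, 18729 bp downstream and 8887 bp upstream of the start), and overlapped them in 9. Over all 55056 windows of the data set these shares were 13.6% above and 11.5% below. At 2 kb 4 windows were above (Spib, the distal Sox8 window and both Esrrg windows), 3 were below (all Atoh8) and 8 overlapped. The shares over all 55050 windows with a 2-kb value were 15.7% above and 15.7% below. By the edgeR test, 6 windows passed the filter at 200 bp, of which 1 was called higher and 2 lower. At 2 kb all 15 passed, of which 2 were called higher and 2 lower. With 15 windows chosen by gene, these counts describe the members and support nothing further.

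The share of 2-kb reads that fell in the central 200 bp shows how sharply the signal was centred. Over all windows it was 39.9% to 41.0% in the control libraries and 33.9% to 36.5% in the RANKL libraries, so every RANKL library was less concentrated than every control. The part of this difference in the results at 200 bp and 2 kb was not tested. At the Spib promoter the share was 14.8% (95% Wilson interval 5.92% to 32.5%) of pooled control reads and 27.4% (20.3% to 35.9%) with RANKL, and the intervals overlap. At the distal Sox8 window it was 5.88% (1.05% to 27.0%) in controls, from a single central read, and 23.1% (16.5% to 31.4%) with RANKL.

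At Mybpc2 the central share was 33.7% (27.5% to 40.4%) in controls and 44.9% (38.7% to 51.3%) with RANKL. At the upstream Atoh8 window it went from 45.8% (37.5% to 54.3%) to 22.2% (14.2% to 33.1%), intervals that do not overlap. The strongest Atoh8 window had shares of 35.5% (30.4% to 41.0%) and 39.8% (30.9% to 49.5%), with overlapping intervals. The intervals treat pooled reads as independent and cover counting error only.

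**Figure D3:**
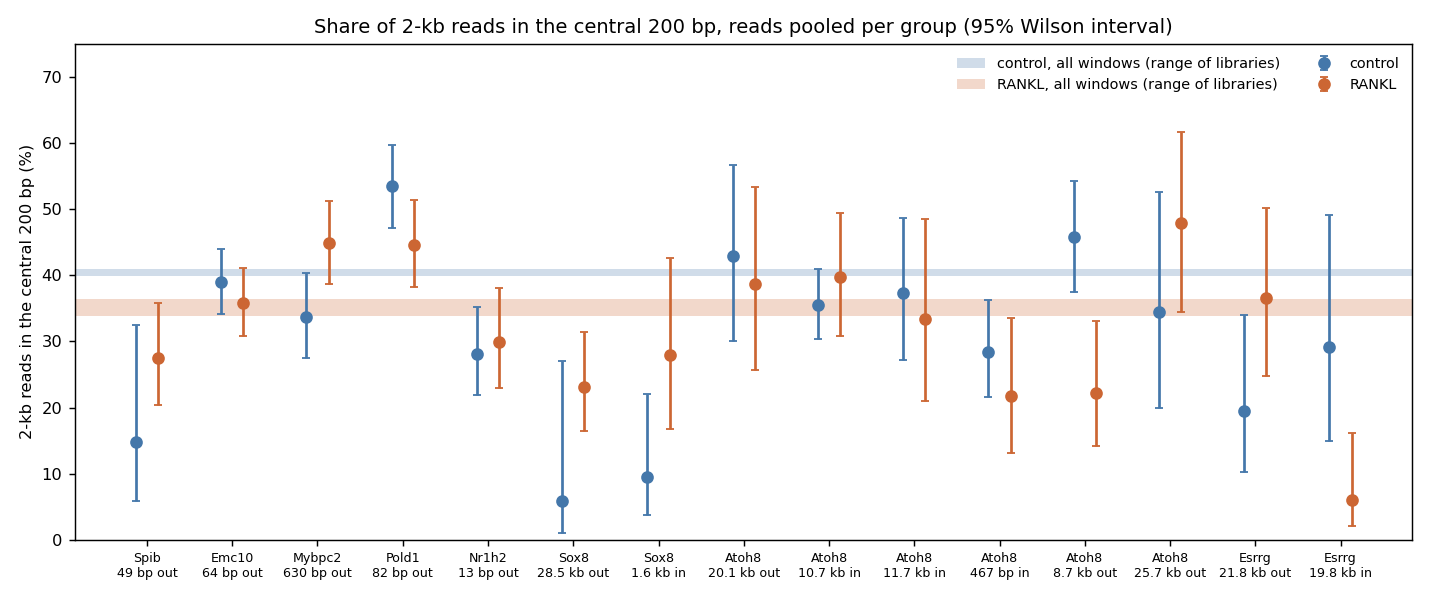
Percentage of 2-kb reads lying in the central 200 bp (y axis) at the 15 windows (x axis), reads pooled over the 3 libraries of each group, with 95% Wilson intervals. Shaded bands give the range of the same share over all windows in the control libraries (39.9% to 41.0%) and the RANKL libraries (33.9% to 36.5%). The upstream Atoh8 window, 8.7 kb outside the gene, falls from 45.8% to 22.2%.

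Genes around the factors were read from lists drawn up with earlier results of these data known, so their direction is no independent evidence. In the RANK pathway, which carries the RANKL signal to NF-κB, all 13 listed genes were tested, and 7 were called higher and 0 lower. Over all 12467 genes tested, 6.98% were called higher and 8.41% lower. The median log2 fold change was 0.49 in the RANK list and 0.01 over all genes tested. The 7 were Bcl3, Traf2, Nfkb2, Rela, Traf3, Traf5 and Tnfrsf11a. Bcl3, an atypical IκB protein that works with NF-κB p50 and p52, went from 109.6 ± 9.03 to 295.7 ± 8.03 CPM (SD, n = 3) and rose by 1.44 ± 0.15 on the log2 scale (edgeR, adjusted p = 3.318e-18). Over windows within 5 kb its value was 0.73 (adjusted p = 0.05216). In 2-kb counts it was 0.94 (adjusted p = 1.388e-10). Nfkb2, the precursor of p52, rose by 0.80 ± 0.20 (adjusted p = 0.001372; 0.49 in 2-kb counts, adjusted p = 0.002105), and Tnfrsf11a, the gene of RANK itself, by 0.49 ± 0.15 (adjusted p = 0.01307). Traf2, a signalling adaptor of the TNF receptor family, rose by 0.84 ± 0.19 (adjusted p = 0.000466) but by 0.38 (adjusted p = 0.2723) over windows within 5 kb. Rela, the p65 subunit, rose by 0.69 ± 0.21 (adjusted p = 0.01091), a call lost without control replicate 1 or without RANKL replicate 3. The calls of Bcl3, Traf2 and Nfkb2 held in the omission of each library. That of Tnfrsf11a was lost without control replicate 2, control replicate 3 or RANKL replicate 3 (adjusted p 0.06853 to 0.1138), that of Traf3 without control replicate 3 or RANKL replicate 3, and that of Traf5 in 12 of 19 other settings.

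Of 28 M cell markers and effectors, 22 were tested, of which 4 were called higher, 1 lower and 17 neither, with a median of 0.34. Over all genes tested, 6.98% were called higher and 8.41% lower. H2-M2, a class I histocompatibility gene, held 4, 2 and 0 counts in controls and 20, 24 and 44 with RANKL and rose by 4.32 ± 0.52 (adjusted p = 1.066e-13), and by 2.47 ± 0.33 in 2-kb counts. Msln, the gene of mesothelin, rose by 2.85 ± 0.49 (adjusted p = 5.818e-07), and Marcksl1, a MARCKS-like actin regulator, by 2.53 ± 0.34 (adjusted p = 4.767e-11; 1.39, adjusted p = 0.05392, over windows within 1 kb). H2-M2 and Msln were low in every control and passed the filter through the RANKL libraries. Without a filter they gave 4.32 (adjusted p = 6.112e-14) and 2.85 (adjusted p = 6.822e-07). Marcksl1 also passed only with RANKL libraries counted, and without a filter it gave 2.53 (adjusted p = 4.017e-11). The 2-kb sum of Marcksl1 gave 1.25 ± 0.21 (adjusted p = 1.679e-06). Cyba, which encodes the p22phox subunit of NADPH oxidase, rose by 1.06 ± 0.35 (adjusted p = 0.02), a call lost without control replicate 1 (0.08147) or RANKL replicate 3 (0.3489). Ctsh, the gene of cathepsin H, fell by 0.55 ± 0.18 (adjusted p = 0.01836), a call lost in 8 of 19 other settings, among them the omission of control replicate 3, RANKL replicate 2 or RANKL replicate 3. Gp2, the M cell receptor named above, held 16, 6 and 2 counts in controls and 3, 11 and 7 with RANKL over 3 windows and was below the filter. Its 2-kb sum gave 0.91 ± 0.31 (adjusted p = 0.02454).

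Among the close paralogues of the factors, the called genes were lower with RANKL. Of 8 listed, 4 were tested, 0 were called higher and 2 lower, with a median of -0.45. The shares over all genes tested were 6.98% higher and 8.41% lower, and 4 genes are too few to set against them. Atoh1, the basic helix-loop-helix factor of secretory cells, went from 273.6 ± 30.7 to 137.6 ± 16.3 CPM (SD, n = 3) and fell by 1.03 ± 0.15 (edgeR, adjusted p = 7.593e-10). Sox9, an SRY-box factor of crypt base and Paneth cells, fell by 0.72 ± 0.15 (adjusted p = 0.0001068), but by 0.06 (adjusted p = 0.8983) over windows within 5 kb. Spi1, which encodes the Ets factor PU.1 of myeloid and B cells, had a log2 fold change of -0.17 ± 0.28 (adjusted p = 0.7464), and Esrra, the paralogue of Esrrg, 0.37 ± 0.20 (adjusted p = 0.2209). The difference between a factor and its paralogue was not tested.

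Of 15 other intestinal transcription factors, 13 were tested, 0 were called higher and 2 lower, with a median of -0.06. The shares over all genes tested were 6.98% higher and 8.41% lower. Hnf4g, a nuclear receptor of enterocytes, fell by 0.52 ± 0.11 (adjusted p = 5.561e-05). Klf4, a zinc finger factor of goblet and surface cells, fell by 0.50 ± 0.17 (adjusted p = 0.03072), a call lost in 9 of 19 other settings, and had a value of 0.10 (adjusted p = 0.879) over windows within 5 kb. Spdef, an Ets factor of goblet cells, had -0.94 ± 0.42 (adjusted p = 0.113), and Elf3, an epithelial Ets factor, 0.23 ± 0.13 (adjusted p = 0.2329). Elf3 was called higher with loess offsets (0.38, adjusted p = 0.02531) and in 2-kb counts with loess offsets (0.34, adjusted p = 0.00873), where Spdef was called lower (-0.67, adjusted p = 0.04239).

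**Figure D4:**
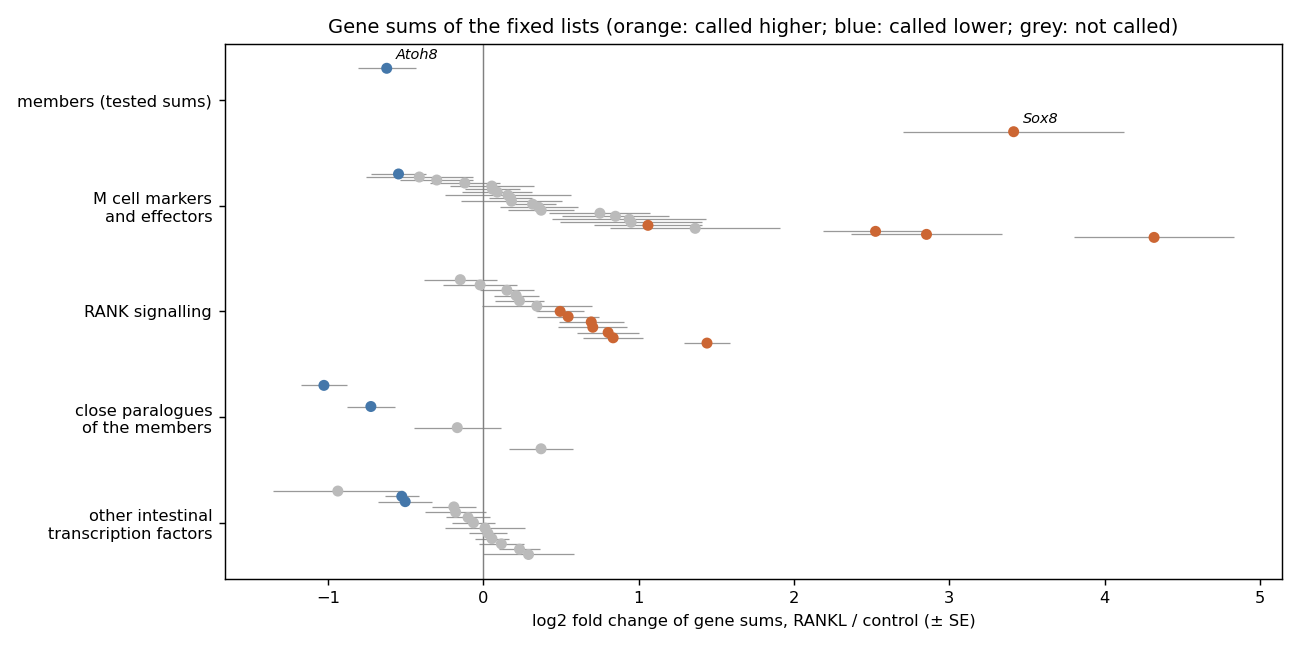
log2 fold change of gene sums, RANKL over control (x axis, ± SE, n = 3 libraries each), for the tested member genes (Sox8 and Atoh8) and the tested genes of 4 lists (y axis), 1 point per gene. Orange points were called higher, blue lower and grey neither, by edgeR at an adjusted p of at most 0.05. Sox8 lies at 3.41 and Atoh8 at -0.62, and 7 of the 13 RANK pathway genes are orange.

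Spi-B is also a factor of B cells and plasmacytoid dendritic cells, so markers of other cell types were read beside it. Calls among them stand beside the shares over all genes tested, 6.98% higher and 8.41% lower. All 12 epithelial markers had windows, the defining Epcam, Vil1 and Cdx1 among them, 1 was called lower (Krt18, -0.84, adjusted p = 0.0005495, but -0.33 within 5 kb and -0.19 in 2-kb counts with loess offsets, without a call), and their summed level was 1343 to 1405 CPM in controls and 1205 to 1362 CPM with RANKL. For B cells and plasmacytoid dendritic cells 7 of 12 markers had windows, with summed levels of 472 to 495 CPM in controls and 392 to 450 CPM with RANKL. Cd79a and Siglech, both defining markers, had no window. Of the 4 tested, 0 were called higher and 1 lower (Irf8, -0.57, adjusted p = 0.03171, a call lost in 10 settings and with a value of 0.10 over windows within 1 kb). In 2-kb counts Irf8 was not called (-0.30, adjusted p = 0.07212), and the B cell factor Pax5, below the filter at 200 bp, gave 1.26 ± 0.33 (adjusted p = 0.003092).

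Markers of other haematopoietic cells summed to 190 to 228 CPM in controls and 164 to 257 CPM with RANKL over 7 of 12 genes, and Cd3e had no window. Mesenchymal markers (8 of 10) summed to 216 to 286 and 246 to 317 CPM, endothelial markers (6 of 8) to 412 to 478 and 319 to 404 CPM, and neural markers (4 of 8) to 64.9 to 92.9 and 49.0 to 97.6 CPM. Pdgfrb (1.71, adjusted p = 0.003378) and Cdh5 (1.02, adjusted p = 0.03411) were called higher and Vwf (-0.66, adjusted p = 0.001332) lower, by edgeR. Pdgfrb and Cdh5 passed the filter only with RANKL libraries counted. Without a filter they gave 1.71 (adjusted p = 0.003999) and 1.03 (adjusted p = 0.03841). Cdh5 was not called without control replicate 2, control replicate 3 or RANKL replicate 1 (adjusted p 0.07926 to 0.3084). Vwf was not called in 2-kb counts (-0.28, adjusted p = 0.07428), in those with loess offsets (-0.13, adjusted p = 0.4844) or after thinning to 1 depth (adjusted p = 0.1026). Accessibility near a marker does not show its expression, and the part of other cell types in the values at Spib, Sox8, Atoh8 and Esrrg was not tested.

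The genes whose sums ran most like those of the factors over the 6 libraries are given as a description. For Sox8 they were Cep350 (Pearson r = 0.997), Abca4 (0.996) and Otud7b (0.992) among 6050 genes at or above the median level. Otud7b went from 51.2 to 80.4 CPM in controls to 134.8 to 147.3 CPM with RANKL. For Atoh8 they were Alkal1 (0.995), Hspa12a (0.990) and Kcnf1 (0.982) among 6049 genes. Kcnf1 went from 121.6 to 187.6 CPM in controls to 68.2 to 93.4 CPM with RANKL. These correlations are over log2(CPM + 1) of 6 libraries that fall into 2 groups, so they largely repeat the group difference. The sums of Spib and Esrrg were below the filter and were not compared.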

How the data were processed

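Per the labels' protocols, reads of 38 bp were sequenced from ATAC-seq libraries of 50000 cells. The authors deposited whole-number read counts in 200-bp windows whose centres lie at least 4003 bp apart, and a score per 2-kb window around the same centres. Judged by its values, the deposited score equals ln(count + 1) after centring and scaling per library. Inverting it gave 2-kb counts no further than 0.00746 from whole numbers, each at least as large as the 200-bp count inside it. The build was mm10 (GRCm38), and the tools listed are MACS2 2.2.7, DESeq2 1.34.0, BWA 0.7.17, fastp 0.20.1 and Picard, all per the submitters' processing notes, with no role for each. For the choice of windows, the counting, any Tn5 shift of read ends and the handling of duplicates, the method is not given in the sources used here. Fixed 200-bp windows can miss part of a broad region, and uncollapsed duplicates would make counting intervals too narrow.

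Windows were assigned to the nearest end of 21900 RefSeq protein-coding genes within 50 kb, and 38494 windows (69.9%) had one. A window is called inside a gene by its centre. The robust quasi-likelihood test of edgeR 4.0.16 (R 4.3.3), with filterByExpr and TMM factors, was run on counts per window, per gene sum and per 2-kb window, with Benjamini-Hochberg adjustment over all features tested. The scripts were tested on simulated data. CPM uses edgeR's library sizes of each table. Alternatives were DESeq2 1.42.0, RLE factors, other count filters, loess offsets, a replicate block, thinning to 1 depth, other assignments of windows to genes and omission of each library. Sums of 2-kb counts with loess offsets were added after seeing the data.

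The members and lists were chosen with earlier results of these data known. Named genes were the 4 factors with all their windows, genes with ends within 30 kb of Spib, the up to 4 tested genes of smallest adjusted p in each list with any called gene on the other side, and the 3 genes most correlated with each tested factor, leaving out predicted genes. Cyba, Traf3, Traf5, Tnfrsf11a, Gp2, Pax5, the Esrrg window 54995 bp upstream and the called cell-type markers fall outside that rule and were named after their values were seen. Totals of 322173 to 976881 counts per library limit precision at single 200-bp windows.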

Additional observations from a re-analysis of the deposited data

How the results depend on the processing

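At 2 kb the values at the Spib promoter, the distal Sox8 window and the strongest Atoh8 window kept their direction and call in all 13 alternatives, and the Sox8 sum in all 14 that could be run (1.62 to 3.95, the lowest in 2-kb counts with loess offsets and 3.11 to 3.95 with 1 library left out). The Sox8 sum was below the filter with at least 10 counts in 3 libraries, after thinning and without RANKL replicate 3. It also had no tested value over windows within 5 kb or within 1 kb, which leave out the distal window 28529 bp from the gene. The Atoh8 sum kept its sign and lost its call in DESeq2 (-0.64), after thinning (-0.55) and in the omission of control replicate 1 or RANKL replicate 2 (range over omissions -0.82 to -0.47). At 200 bp the strongest Atoh8 window lost its call in 7 of 14 alternatives and the upstream Atoh8 window in 9 of 13. Numbers of calls moved as well, and the cause was not tested where fewer features or samples do not show it. Numbers called higher and lower were, at 200 bp, 1264 and 1039 in DESeq2, 545 and 747 after thinning, 4181 and 5076 in the 2-kb counts, and 1337 to 2802 and 1475 to 2229 with 1 library left out. For gene sums they were 408 and 485 in DESeq2, 344 and 492 after thinning, 384 and 501 within 5 kb, 219 and 300 within 1 kb, 1463 and 1923 in 2-kb counts, 1546 higher in 2-kb counts with loess offsets, and 543 to 848 and 676 to 934 with 1 library left out. At 2 kb they were 2458 and 2528 after thinning, 3035 lower with loess offsets, and 2621 to 3872 and 3418 to 4906 with 1 library left out. The lowest numbers came without control replicate 1 or RANKL replicate 3 for gene sums.

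Signs changed at values near 0 that were not called, and at Klf4, Traf3, Irf8 and the Esrrg sum. The Esrrg sum, below the filter at 200 bp within 50 kb, was 0.70 within 200 kb and 1.00 in 2-kb counts. By nearest gene body it was -0.55, and each of these 3 values was called. Klf4 was 0.10 within 5 kb and 0.082 within 1 kb, Traf3 -0.054 and -0.077, and Irf8 0.10 within 1 kb. Spi1 was 0.26 in 2-kb counts and 0.22 with loess offsets there. Pold1 was -0.37 after thinning at 200 bp. The Nr1h2 window was -0.019 in the 2-kb counts, where it was 0.010 in DESeq2, 0.0018 with RLE factors, 0.0092 with at least 10 counts in 3 libraries, 0.19 with loess offsets and 0.20 after thinning. With loess offsets the Sox8 window inside the gene was -0.072 and the outermost downstream Atoh8 window -0.15. With 1 library left out the ranges were -0.36 to 0.030 for Spi1 and, at 2 kb, -0.19 to 0.52 for that Sox8 window, -0.047 to 0.21 for that Atoh8 window, -0.0032 to 0.24 for Emc10 and -0.16 to 0.11 for Nr1h2.

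The labels number the experiments 1 to 3 in both groups without saying that a number marks a shared day. Same-numbered libraries did not deviate together (correlations of deviations over windows -0.035, 0.014 and -0.013), so no pairing was taken. With a replicate block the Atoh8 sum was -0.66 (adjusted p = 0.0158) and the Sox8 sum 3.46 (adjusted p = 0.000599), and 1807 windows were called higher and 1827 lower at 200 bp. The upstream Atoh8 window (-1.24, adjusted p = 0.08039) and Klf4 (-0.51, adjusted p = 0.05702) were not called in that fit, and the 2-kb value at Nr1h2 was 0.019. Cyba (0.94, adjusted p = 0.07577), Traf5 (0.51, adjusted p = 0.1044) and Irf8 (-0.54, adjusted p = 0.08029) also lost their call.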
